A study of Mus musculus with 10 samples.

Results

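The mammalian mitochondrial ribosome translates the few proteins encoded by mitochondrial DNA, all of them subunits of the respiratory chain and the ATP synthase. Its protein components are encoded in the nucleus, made in the cytosol and imported, and many of them descend from bacterial ribosomal proteins while others were added during the evolution of mitochondria. In the intestinal epithelium, mitochondrial content and respiration are known to differ between crypt cells and the absorptive cells of the villus. Genes for these proteins were selected by name, as every gene whose symbol starts with Mrpl (large subunit) or Mrps (small subunit) followed by a number. The selection gave 76 of the 19505 genes measured, 48 with an Mrpl and 28 with an Mrps symbol, each represented by 1 probe set. The name rule itself used no measured value, but the members were chosen with earlier results of these data known.

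The samples were small intestine organoids from BALB/c mice, in which epithelial stem cells grow into hollow structures inside a basement membrane gel. In 5 cultures, 20 ng/ml recombinant mouse TNF was combined with pegtarazimod at 5 mg/ml. Pegtarazimod is a PEGylated peptide that blocks complement activation and myeloperoxidase. The other 5 cultures received the same TNF with 2.625 mM PEG as vehicle. Both treatments lasted 48 h, and the comparison asks which transcripts pegtarazimod altered in epithelium exposed to TNF. The 5 samples of each group are called biological replicates in the series design, but what differed between them is not stated. The p-values below set the difference between groups against a spread estimated from these samples alone. Which sources of variation that spread covers is unknown. Every group contained TNF, and a culture without TNF was not analysed here. The organoids hold several epithelial cell types, and in RNA from whole cultures fewer cells of a type and less RNA per cell cannot be told apart.

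RNA of each sample was hybridised to 1 single-colour array, and the number of arrays limits the precision. Values are log2 expression, with array medians between 5.60 and 5.66. The 7 epithelial markers averaged 10.22 to 10.40 with pegtarazimod and 10.16 to 10.27 with vehicle, whereas 4 measured leukocyte markers averaged 4.01 to 4.23 and 3.92 to 4.15, and 3 endothelial markers 3.67 to 3.98 and 3.84 to 4.03, close to the lower quartile of the arrays (3.84 to 3.90). Of 5 measured mesenchymal markers, which averaged 4.90 to 5.32 with pegtarazimod and 4.82 to 5.07 with vehicle, Vim was higher with pegtarazimod (0.63, limma adjusted p = 0.0240). Cell type markers of the epithelium moved with the treatment. Enterocyte markers averaged 9.10 to 10.38 with pegtarazimod and 8.13 to 8.83 with vehicle (3 of 7 higher, none lower), goblet markers 8.38 to 8.75 and 7.27 to 7.57 (5 of 5 higher), enteroendocrine markers 9.34 to 9.82 and 8.56 to 9.19 (2 of 4 higher), Paneth markers 6.75 to 7.77 and 7.64 to 8.72 (3 of 5 lower), stem cell markers 7.17 to 8.11 and 8.84 to 9.14 (3 of 4 lower) and cycling cell markers 8.70 to 9.37 and 9.59 to 9.70 (3 of 5 lower). The part of these shifts in the values below was not tested. Replicates 1 and 2 of both groups separated from the remaining replicates. The leading component of the variation left after removing group means (33.4% of it) placed replicates 1 and 2 at -27.6 and -19.0 with pegtarazimod and at -13.5 and -12.0 with vehicle, and the others at 11.4 to 21.2 with pegtarazimod and 8.20 to 9.02 with vehicle. The labels name no batch, and differences within each subset are given for each gene whose values on all arrays are printed below.

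Expression of the mitochondrial ribosomal protein genes differed little between pegtarazimod and vehicle. None of the 76 genes passed the test in either direction (limma, Benjamini-Hochberg adjustment over all 19505 genes, threshold 0.05), while 954 genes (4.89%) passed over the whole array, 488 of them higher (2.5%) and 466 lower (2.39%). The smallest adjusted p among the 76 was 0.0810, for Mrpl51, which encodes a large subunit protein found only in mitochondrial ribosomes. Differences, always pegtarazimod minus vehicle on the log2 scale, ranged from -0.15 for Mrps2 to 0.34 for Mrpl15. At an unadjusted p below 0.05, 12 of the 76 were higher and none lower, against 1816 higher (9.31%) and 1882 lower (9.65%) of all genes.

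Small positive differences predominated. Of the 76 genes, 62 (81.6%) had a positive difference, against 9886 (50.7%) of all genes, and the median difference was 0.08, against 0.00 over all genes. Without replicate 5 with pegtarazimod the median was 0.04 and 51 were positive, and without replicate 1 with vehicle 0.06 and 52. The median size of a difference regardless of sign was 0.09 for the 76 genes and 0.11 for all genes. These genes come from the same RNA and the same arrays, so they are not independent counts, and no test was made of their joint shift.

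The 95% intervals of the limma fit bound what these arrays leave possible for each gene. For all 76 genes the interval lay within a 1.5-fold change in either direction, which held for 86.4% of all genes. The highest upper limit was 0.58 (1.49-fold higher, Mrpl15) and the lowest lower limit was -0.34 (1.27-fold lower, Mrpl33). The largest unadjusted p that passed over all genes was 0.00244, which at the median standard error of the 76 genes (0.10) corresponds to a difference of 0.37. A smaller observed difference therefore did not pass in this fit at that standard error, and the value needed ran from 0.28 to 0.64 among the 76 genes. This is a cutoff for observed differences, not a limit below which a true difference cannot be detected. All 76 genes lay well inside the measured range, with means over the 10 arrays between 5.28 and 8.69, and none lay below the lower quartile of the arrays.

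**Figure D1:**
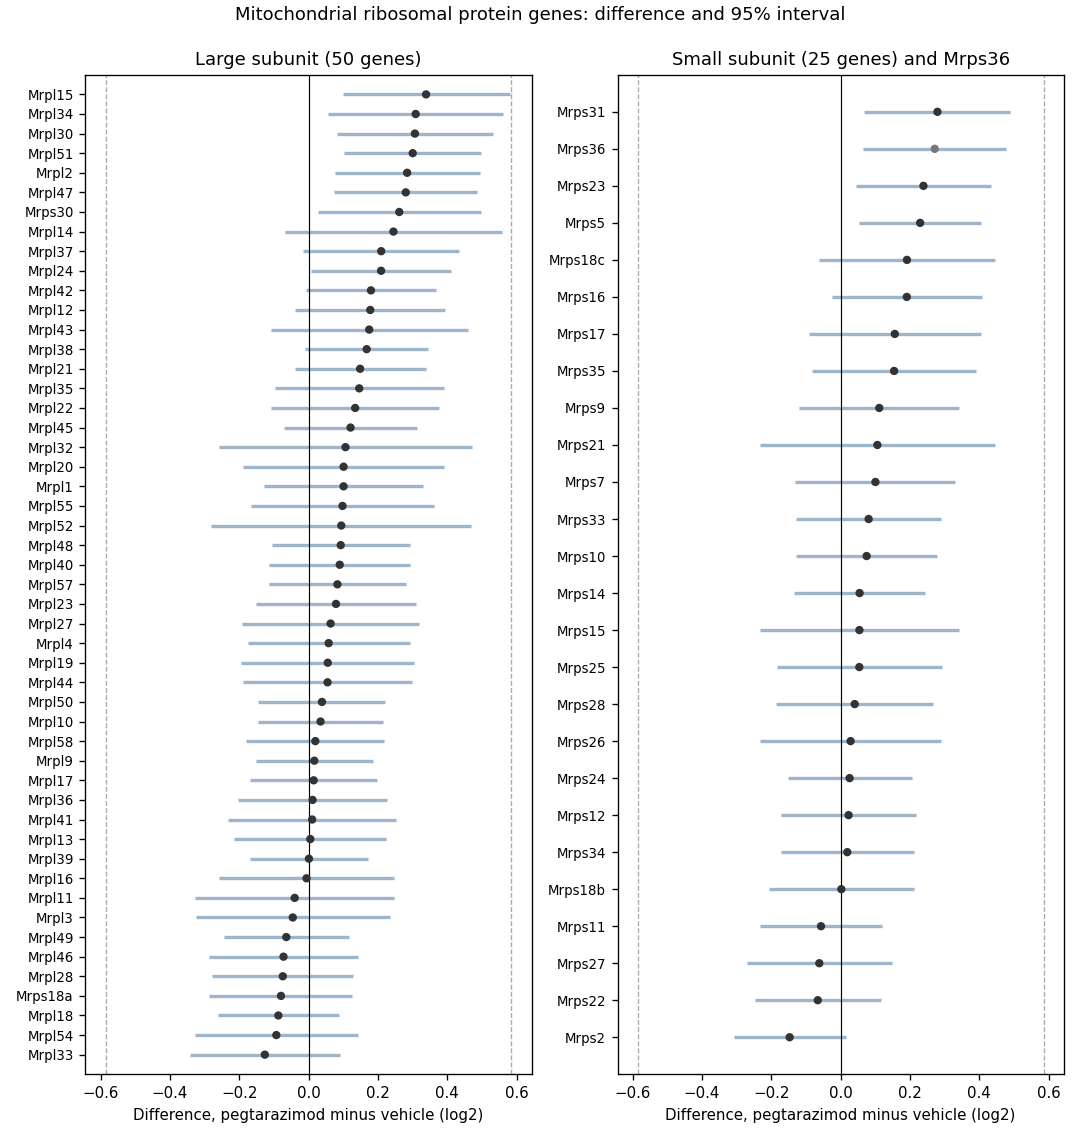
Difference between pegtarazimod and vehicle (x axis, log2) for each of the 76 genes, with its 95% interval from limma as a bar, for the 50 large subunit genes on the left and the 25 small subunit genes with Mrps36 (grey) on the right. Dashed lines mark a 1.5-fold change, and every interval lies between them, with 62 of the 76 points to the right of 0.

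Sorted by the subunit in which each protein sits, 50 genes encode proteins of the large subunit and 25 proteins of the small subunit. Mrps30 and Mrps18a carry small subunit names, but their proteins are part of the large subunit, and they are counted there. Mrps36 is set apart, because its protein is now assigned to the 2-oxoglutarate dehydrogenase complex of the citric acid cycle. The median difference was 0.09 for the large subunit, with 40 of 50 genes positive, and 0.05 for the small subunit, with 21 of 25 positive. Genes for proteins with a bacterial homologue had a median of 0.08 (37 of 45 positive), and those for proteins of mitochondrial origin a median of 0.07 (24 of 30 positive). None of these groups held a gene that passed the test, and differences between the groups were not tested.

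Mrpl15, which encodes a large subunit protein with a bacterial homologue, had the largest difference. Its values were 7.56, 7.73, 7.59, 7.19 and 7.37 with pegtarazimod, against 7.20, 7.33, 7.08, 6.95 and 7.19 with vehicle, in the order of replicates 1 to 5. In both groups replicate 4 was the lowest and replicate 2 the highest, and the groups overlapped because replicate 4 with pegtarazimod lay inside the vehicle range. The difference was 0.34 ± 0.11 (SE, 1.26-fold, limma adjusted p = 0.106). It was 0.38 in replicates 1 and 2 and 0.31 in replicates 3 to 5, and it passed the test with these subsets as a block (adjusted p = 0.0402), where 9.33% of all genes passed and 4.5% were higher. It was the only one of the 76 to pass there.

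Mrpl51 came closest to the threshold in the fit over all arrays. Its values were 7.88, 7.89, 7.73, 7.603 and 7.79 with pegtarazimod, against 7.49, 7.29, 7.55, 7.595 and 7.46 with vehicle. The groups were separated only narrowly, by the replicate 4 arrays of both groups. The difference was 0.30 ± 0.09 (SE, 1.23-fold, limma adjusted p = 0.0810). Within replicates 1 and 2 it was 0.49 and passed (adjusted p = 0.0437), the only one of the 76 to do so, where 6.3% of all genes passed and 2.93% were higher. Within replicates 3 to 5 it was 0.17 (adjusted p = 0.506), and none of the 76 passed there, against 3.34% of all genes.

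The other large subunit genes among the 5 largest positive differences were Mrpl34, Mrpl30 and Mrpl2, all with bacterial homologues. The protein of Mrpl2 lies near the catalytic centre at which peptide bonds form. Mrpl2 had 7.85, 7.99, 7.86, 7.81 and 8.19 with pegtarazimod and 7.56, 7.62, 7.84, 7.69 and 7.57 with vehicle, and the groups overlapped because replicate 3 with vehicle lay above replicate 4 with pegtarazimod (0.28 ± 0.10, limma adjusted p = 0.119). Mrpl30 had 7.45, 7.66, 7.70, 7.27 and 7.292 with pegtarazimod and 7.13, 7.26, 7.11, 7.04 and 7.289 with vehicle. Its groups overlapped only through replicate 4 with pegtarazimod (0.31 ± 0.11, limma adjusted p = 0.119). Mrpl34 had 5.82, 6.28, 6.15, 5.99 and 6.36 with pegtarazimod and 5.92, 5.70, 5.67, 6.05 and 5.71 with vehicle. Its groups overlapped, since replicates 1 and 4 were lower with pegtarazimod than with vehicle (0.31 ± 0.12, limma adjusted p = 0.161). By subset (replicates 1 and 2, then replicates 3 to 5), the differences were 0.33 and 0.25 for Mrpl2, 0.36 and 0.27 for Mrpl30, and 0.24 and 0.36 for Mrpl34.

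**Figure D2:**
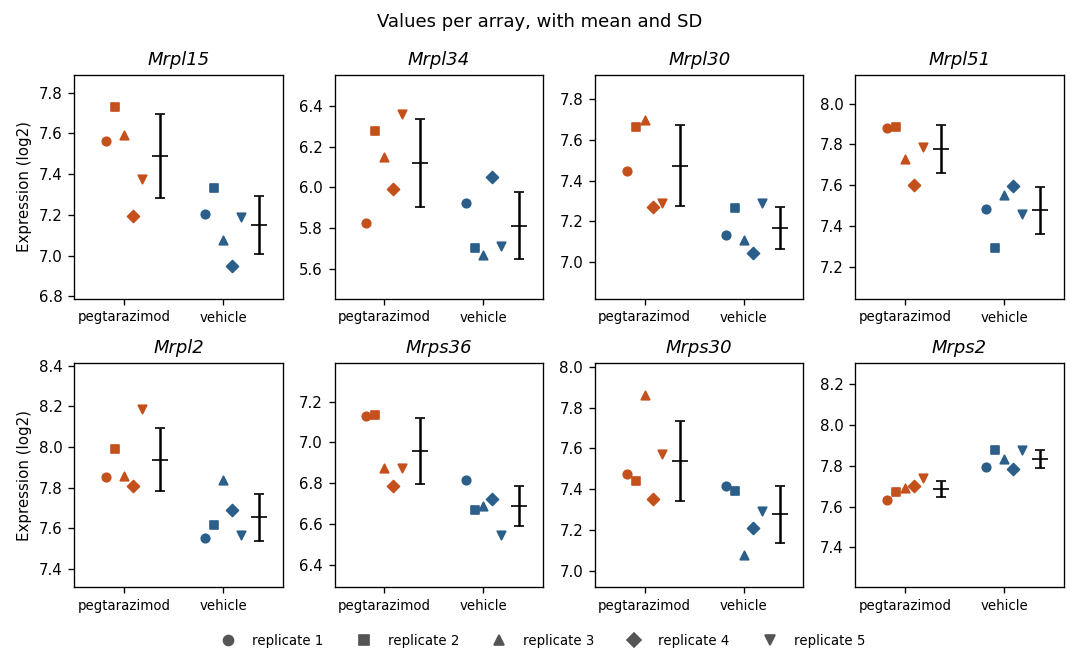
Expression (y axis, log2, 1.1 units high in each panel) of 8 genes on each array, with pegtarazimod left of vehicle, 1 symbol per replicate, and the mean and SD of the 5 arrays as a bar. The groups overlap for Mrpl15, Mrpl34, Mrpl30, Mrpl2, Mrps36 and Mrps30, touch for Mrpl51 and are separate for Mrps2, whose values are lower with pegtarazimod.

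Proteins around the exit of the peptide tunnel, where new chains leave the large subunit and meet the inner membrane, are encoded by 6 of the genes, and all 6 had positive differences of 0.01 to 0.28. Mrpl47 had the largest of these, with 6.03, 6.07, 6.004, 5.97 and 6.22 with pegtarazimod and 5.62, 5.67, 5.73, 5.98 and 5.90 with vehicle (0.28 ± 0.10, limma adjusted p = 0.118). Replicate 4 did not differ in that direction, with 5.97 and 5.98, and the difference was 0.41 in replicates 1 and 2 and 0.19 in replicates 3 to 5. Mrpl24 followed at 0.21 (adjusted p = 0.243), and Mrpl45, whose protein ties the ribosome to the membrane, differed by 0.12 (adjusted p = 0.529). In the central protuberance, a part of the large subunit that contacts transfer RNA and the small subunit, 8 of 10 genes were positive, between Mrpl38 at 0.17 and Mrpl18 at -0.09. At the stalk that recruits translation factors, 4 genes were measured, and they lay between 0.18 for Mrpl12 and -0.09 for Mrpl54. None of these 20 genes passed the test.

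In the small subunit, 3 genes had higher values on every pegtarazimod array than on any vehicle array. Mrps31, whose protein has no bacterial counterpart, had 8.40, 8.66, 8.45, 8.28 and 8.26 with pegtarazimod and 8.25, 8.21, 8.08, 7.97 and 8.13 with vehicle (0.28 ± 0.10, limma adjusted p = 0.126). Mrps23, likewise of mitochondrial origin, had 8.85, 8.67, 8.73, 8.77 and 9.05 with pegtarazimod and 8.52, 8.60, 8.49, 8.63 and 8.64 with vehicle (0.24 ± 0.09, limma adjusted p = 0.161). Mrps5, the homologue of a bacterial protein near the entry of messenger RNA, had 8.56, 8.54, 8.56, 8.68 and 8.73 with pegtarazimod and 8.43, 8.34, 8.27, 8.44 and 8.44 with vehicle (0.23 ± 0.08, limma adjusted p = 0.137). By subset (replicates 1 and 2, then replicates 3 to 5), the differences were 0.30 and 0.27 for Mrps31, 0.20 and 0.26 for Mrps23, and 0.17 and 0.27 for Mrps5. Together with Mrpl51, 4 of the 76 genes were higher without overlap and 1 was lower, against 653 (3.35%) and 656 (3.36%) of all genes. Both counts are small and near the share over all genes.

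Mrps2, which encodes the small subunit homologue of a bacterial protein on the back of the subunit, was the gene with the most negative difference and the only one lower without overlap. It had 7.63, 7.67, 7.69, 7.70 and 7.74 with pegtarazimod and 7.79, 7.88, 7.84, 7.79 and 7.88 with vehicle. Its spread within groups was small (SD 0.04 with pegtarazimod and 0.04 with vehicle, n = 5 each), and the difference of -0.15 ± 0.08 did not pass (limma adjusted p = 0.322). It was -0.18 in replicates 1 and 2 and -0.12 in replicates 3 to 5. The limma standard error exceeds what these 10 values alone would give, because limma draws each gene's spread towards that of all genes. The next most negative differences were those of Mrpl33 (-0.13, adjusted p = 0.572), Mrpl54 (-0.09, adjusted p = 0.726), Mrpl18 (-0.09, adjusted p = 0.642) and Mrps18a (-0.08, adjusted p = 0.731), all with overlapping groups. Mrpl33 and Mrpl18 were negative in both subsets (-0.11 and -0.14, and -0.08 and -0.09), whereas Mrpl54 and Mrps18a were positive in replicates 1 and 2 (0.10 and 0.05) and negative in replicates 3 to 5 (-0.22 and -0.17).

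Of the pair named for the small but placed in the large subunit, Mrps30 had 7.47, 7.44, 7.86, 7.35 and 7.57 with pegtarazimod and 7.42, 7.39, 7.08, 7.21 and 7.29 with vehicle. Its difference of 0.26 ± 0.11 (limma adjusted p = 0.210) was 0.05 in replicates 1 and 2 and 0.40 in replicates 3 to 5. Mrps18a had 7.29, 7.51, 7.07, 7.14 and 7.15 with pegtarazimod and 7.33, 7.36, 7.38, 7.26 and 7.22 with vehicle. Its related genes Mrps18b and Mrps18c differed by 0.00 (adjusted p = 0.994) and 0.19 (adjusted p = 0.436). Mrps36 had 7.13, 7.13, 6.87, 6.78 and 6.87 with pegtarazimod and 6.81, 6.67, 6.69, 6.72 and 6.55 with vehicle, with only replicate 4 with pegtarazimod inside the vehicle range (0.27 ± 0.10, limma adjusted p = 0.131). Within replicates 1 and 2 Mrps36 differed by 0.39, and by 0.19 within the remaining replicates.

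Promoters of nuclear genes for mitochondrial proteins are known to be bound by the transcription factors NRF1, GABP (an ETS factor) and YY1 in mammalian cells. Promoter windows of 300 bases (250 before to 50 after the transcription start, RefSeq, mouse build GRCm38.p6) were given for 67 of the 76 genes, 73 windows in all, and were searched on both strands. The ETS motif CCGGAAG was found in 25 of the 73 windows (34.2%), against 8.86% of all 32851 windows and 11.8% of the windows of the genes tested. The NRF1 motif, written GCGC, any base, TGCGC, was found in 13 windows (17.8%, against 4.60% and 6.77%), and the YY1 motif AAGATGG in 13 (17.8%, against 6.34% and 6.32%). The E box CACGTG, the motif of MYC, was found in 7 windows of 5 genes (9.59% of windows, against 7.15% and 8.11%), and 3 of these windows belong to Mrpl2 and overlap. The ETS and YY1 motifs can share the letters AAG where they adjoin, and a match describes letters in a window, not a bound site. Whether genes with and without a match differed was not tested. The median difference was 0.08 with and 0.09 without the ETS motif (25 and 42 genes), 0.11 and 0.08 for NRF1 (13 and 54 genes), and 0.03 and 0.09 for YY1 (13 and 54 genes).

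The 250 bases before the start are shown for 3 genes that mark the range described above, with any of the ETS, NRF1 and YY1 motifs in capitals. Mrpl51 (chr6:125191950-125192199, plus strand) had the smallest p and holds 1 ETS match, Mrpl30 (chr1:37890227-37890476, plus strand) was among the largest differences and holds 1 NRF1 match, and Mrps2 (chr2:28467816-28468065, plus strand) had the most negative difference and holds none of the 3 in this window.
Mrpl51: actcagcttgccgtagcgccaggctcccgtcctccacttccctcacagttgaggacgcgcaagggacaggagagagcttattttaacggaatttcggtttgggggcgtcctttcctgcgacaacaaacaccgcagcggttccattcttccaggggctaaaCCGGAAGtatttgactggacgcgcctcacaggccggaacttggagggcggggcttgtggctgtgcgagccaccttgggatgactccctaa
Mrpl30: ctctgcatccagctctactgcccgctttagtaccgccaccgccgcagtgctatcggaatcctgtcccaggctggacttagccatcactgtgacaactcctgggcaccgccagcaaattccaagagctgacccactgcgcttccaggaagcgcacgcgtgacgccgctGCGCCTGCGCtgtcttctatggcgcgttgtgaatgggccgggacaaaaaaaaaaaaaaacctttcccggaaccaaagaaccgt
Mrps2: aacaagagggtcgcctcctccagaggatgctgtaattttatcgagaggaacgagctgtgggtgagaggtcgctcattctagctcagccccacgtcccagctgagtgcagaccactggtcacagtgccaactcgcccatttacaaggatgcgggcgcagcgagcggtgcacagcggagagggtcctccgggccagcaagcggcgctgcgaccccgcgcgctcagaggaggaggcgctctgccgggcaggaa

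The 76 genes were compared between the subsets of replicates. The median difference of the 76 genes was 0.09 in replicates 1 and 2, with 54 positive, and 0.06 in replicates 3 to 5, with 51 positive. In both subsets 38 genes were positive and 9 negative, so 29 differed in sign between them. Of all 19505 genes, 6159 were positive and 5979 negative in both subsets. The difference between the subsets itself passed for none of the 76 genes and for 5 of all genes (0.0256%). At an unadjusted p below 0.05 it was seen for 6 of the 76 and for 1493 (7.65%) of all genes, a share near that of the members. These 6, named after their values were seen, were Mrpl14 (0.60 in replicates 1 and 2 and 0.01 in replicates 3 to 5), Mrpl43 (0.53 and -0.06), Mrps21 (0.50 and -0.16), Mrps26 (0.32 and -0.16), Mrps17 (-0.18 and 0.38) and Mrps15 (-0.22 and 0.24).

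**Figure D3:**
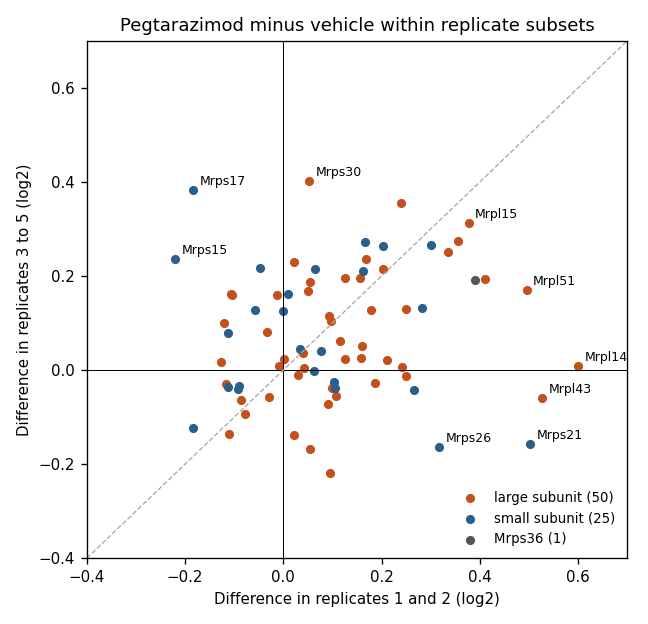
Difference between pegtarazimod and vehicle in replicates 1 and 2 (x axis, log2) and in replicates 3 to 5 (y axis, log2), 1 point per gene, coloured by subunit, with a dashed line where both are equal. Of the 76 points, 38 lie in the upper right quadrant and 9 in the lower left, and Mrpl14, Mrpl43, Mrps21, Mrps26, Mrps17 and Mrps15 lie farthest from the line.

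Averaged over the 76 genes, the arrays with pegtarazimod stood at 7.16, 7.30, 7.20, 7.21 and 7.34 and those with vehicle at 7.12, 7.13, 7.19, 7.16 and 7.17 (log2). Replicates 2 and 5 with pegtarazimod lay above all other arrays, and replicate 1 with pegtarazimod lay within the vehicle range. Replicate 5 with pegtarazimod held the highest value of 32 of the 76 genes and replicate 2 with pegtarazimod that of 18, while replicate 1 with pegtarazimod held the lowest of 17 and replicate 1 with vehicle the lowest of 15. Spread within groups was a little smaller than for other genes, with a median SD of 0.16 with pegtarazimod and 0.12 with vehicle, against 0.18 and 0.15 over all genes (n = 5 per group). The SD was larger with pegtarazimod for 56 of the 76 genes.

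The other genes of mitochondrial translation gave few calls. Of 4 measured mitoribosomal proteins under other symbols, none passed: Dap3 differed by 0.15, Chchd1 by 0.06, Gadd45gip1 by 0.03 and Ptcd3 by -0.10 (limma adjusted p = 0.572 to 0.917). Of 25 genes for assembly of the mitochondrial ribosome and modification of its RNA none passed (median 0.00, 13 positive), and of 19 genes for mitochondrial aminoacyl-tRNA synthetases and the transamidase none passed (median 0.10, 14 positive). Of 16 mitochondrial translation factor genes 1 rose (median 0.11, 15 positive). This was Gfm2, whose protein releases ribosomal subunits after termination, with 8.46, 8.34, 8.36, 8.33 and 8.40 with pegtarazimod and 8.18, 8.04, 7.88, 7.95 and 8.07 with vehicle. All its pegtarazimod values exceeded all vehicle values (0.35 ± 0.08, limma adjusted p = 0.0299), yet the call was lost without replicate 1, 2 or 5 with pegtarazimod or replicate 2, 3, 4 or 5 with vehicle (adjusted p up to 0.0959, without replicate 3 with vehicle). It was also lost within both subsets, at 0.28 in replicates 1 and 2 (adjusted p = 0.273) and 0.39 in replicates 3 to 5 (adjusted p = 0.0651). Averaged over the 16 genes, every pegtarazimod array (7.17 to 7.26) lay above every vehicle array (6.997 to 7.16).

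Genes upstream of mitochondrial gene expression moved in single cases. Of 13 genes for replication and transcription of mitochondrial DNA 1 rose and none fell (median 0.01). This was Mterf2, of the family of mitochondrial transcription termination factors, with 6.52, 6.48, 6.13, 6.30 and 6.63 with pegtarazimod and 5.77, 5.89, 5.78, 5.41 and 5.63 with vehicle (0.71 ± 0.12, limma adjusted p = 0.00375). It passed in both subsets, at 0.67 in replicates 1 and 2 and 0.74 in replicates 3 to 5 (adjusted p = 0.0352 and 0.0102). Of 9 regulators of mitochondrial biogenesis 1 fell and none rose (median -0.15). This was Nrf1, which encodes the transcription factor NRF1 named above, with 7.78, 7.81, 7.81, 7.81 and 7.86 with pegtarazimod and 8.16, 8.17, 8.10, 8.10 and 8.07 with vehicle. Every pegtarazimod value lay below every vehicle value (-0.30 ± 0.07, limma adjusted p = 0.0331). The call was lost with each array centred on its median (adjusted p = 0.0513) and with the replicate number as a block (adjusted p = 0.0545). It was also lost without replicate 1, 2 or 3 with pegtarazimod or any 1 vehicle array (adjusted p up to 0.0813, without replicate 3 with vehicle), and within replicates 1 and 2 (-0.37, adjusted p = 0.0955) and replicates 3 to 5 (-0.26, adjusted p = 0.206). The coactivator gene Ppargc1a differed by 0.51 (adjusted p = 0.480) and Myc by -0.58 (adjusted p = 0.122), and neither passed. Of 24 genes for import of proteins into mitochondria none passed (median 0.05, 18 positive).

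Nuclear-encoded oxidative phosphorylation genes gave more calls. Of 84 measured, 10 rose and none fell (11.9% higher, against 2.5% of all genes), 78 were positive and the median difference was 0.25. Among them Sdhb, a succinate dehydrogenase subunit, differed by 0.49 ± 0.10 (limma adjusted p = 0.0119), Uqcrq of complex III by 0.43 ± 0.09 (adjusted p = 0.0172) and Cox7a2l, which links complexes III and IV, by 0.42 ± 0.09 (adjusted p = 0.0176). Sdhb passed in both subsets, at 0.56 in replicates 1 and 2 and 0.45 in replicates 3 to 5 (adjusted p = 0.0245 and 0.0428). Uqcrq passed in replicates 3 to 5 (0.50, adjusted p = 0.0381) but not in replicates 1 and 2 (0.32, adjusted p = 0.265). Cox7a2l passed in neither (0.45 and 0.39, adjusted p = 0.0714 and 0.0814), nor without replicate 3 or 4 with vehicle (adjusted p = 0.0583 and 0.0568). Over the 84 genes the median was 0.32 with 7 calls in replicates 1 and 2 and 0.18 with 2 calls in replicates 3 to 5. Of all genes, 572 (2.93%) were called higher in replicates 1 and 2 and 359 in replicates 3 to 5. The number of calls among the 84 genes depended on single arrays, as did the number over all genes. With pegtarazimod it was 3 without replicate 1 or 2, 5 without replicate 5 and 16 without replicate 4, and with vehicle it was 5 without replicate 2, 2 without replicate 3 or 4 and 4 without replicate 5. Calls over all genes, 954 with every array, were 552, 522, 799 and 1245 without replicate 1, 2, 5 and 4 with pegtarazimod. Without replicate 2, 3, 4 and 5 with vehicle they were 679, 437, 498 and 562. The mean of the enterocyte markers, given above, was also higher on every pegtarazimod array than on any vehicle array, and its part in these values was not tested. Genes for proteins of the cytosolic ribosome had a median difference of 0.14, with 54 of 55 positive and none past the test. Whether the 76 genes differed from these lists was not tested, since genes of 1 list share arrays and cannot serve as replicates.

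**Figure D4:**
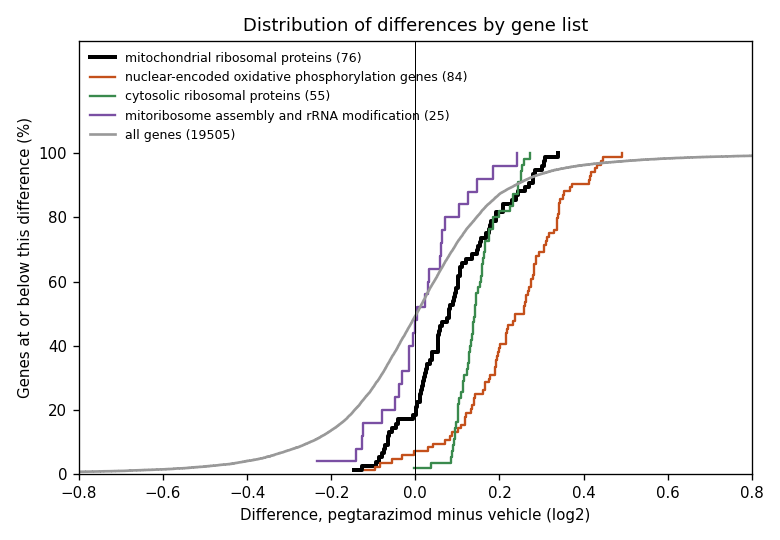
Share of genes (y axis, percent) with a difference at or below each value (x axis, log2, pegtarazimod minus vehicle) for 4 lists and all 19505 genes. The curve of the 76 mitochondrial ribosomal protein genes (black, median 0.08) lies between that of the assembly and RNA modification genes (median 0.00) and that of the oxidative phosphorylation genes (median 0.25).

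Means over lists were also compared by array. The mean over oxidative phosphorylation genes was 8.12, 8.20, 7.96, 7.96 and 8.15 with pegtarazimod and 7.88, 7.84, 7.90, 7.86 and 7.77 with vehicle, without overlap. The mean over cytosolic ribosomal protein genes was 10.31, 10.46, 10.19, 10.20 and 10.44 with pegtarazimod and 10.20, 10.20, 10.26, 10.15 and 10.04 with vehicle, with overlap. Replicates 2 and 5 with pegtarazimod were the highest arrays for both of these lists, as they were for the 76 genes, whereas the mean over the translation factor genes was highest in replicate 4 with pegtarazimod (7.26) and that over the assembly and RNA modification genes in replicates 4 and 3 with pegtarazimod (6.75 and 6.74).

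**Figure D5:**
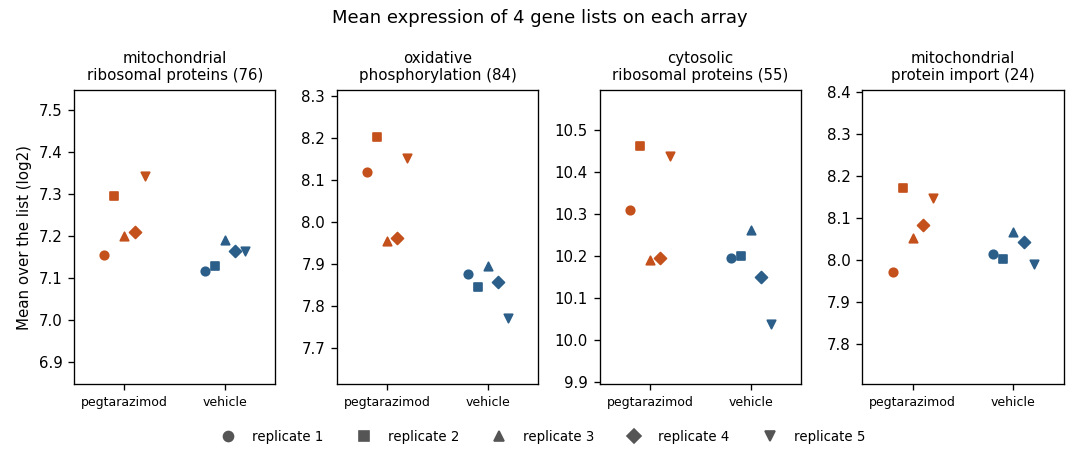
Mean expression (y axis, log2, 0.7 units high in each panel) over the genes of 4 lists on each array, with pegtarazimod left of vehicle and 1 symbol per replicate. Replicates 2 and 5 with pegtarazimod are the highest arrays in all 4 panels, and the groups are separate only for the oxidative phosphorylation genes.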

How the data were processed

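RNA from 10 organoid samples (5 with TNF and pegtarazimod, 5 with TNF and PEG vehicle) was labelled with a whole-transcript kit and hybridised to single-colour arrays, per the labels' protocols. Per probe set, the authors deposited log2 expression made with oligo and RMA (background correction, quantile normalisation, probe summary), per the submitters' processing notes. Their versions and the genome build: not given in the sources used here. Quantile normalisation hides a change common to most genes. Of 22203 probe sets, 19572 had 1 gene symbol in the platform annotation, and the other 2631 had no single symbol. The probe sets with 1 symbol stood for 19505 genes, and for 55 genes with more than 1 probe set the brightest was kept. All 76 member symbols were unchanged in the gene table used for names. Correlations between arrays were 0.983 to 0.992 within pegtarazimod, 0.989 to 0.994 within vehicle and 0.973 to 0.991 between groups, and no array repeated another.

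The linear model was limma's (version 3.58.1, R 4.3.3; lmFit and eBayes without covariates) with p-values adjusted by Benjamini-Hochberg over 19505 genes. The test was checked on simulated data. Named genes were those past the threshold, the 5 largest differences in each direction, Mrps30, Mrps18a, Mrps36, any below the lower quartile, and up to 3 called genes of each related list. Mrps31, Mrps23, Mrps5 and other members were named after their values were seen. The members and lists were chosen with earlier results of these data known. The name pattern for cytosolic ribosomal proteins was corrected after the values were available, to leave out kinases with similar symbols. Alternatives were quantile normalisation over the genes, median centring, leaving out the dimmest 25% or 50%, robust priors with an intensity trend, weights per array, blocks for the replicate number or for replicates 1 and 2 against 3 to 5, fits within these subsets, the mean over probe sets, all probe sets, and leaving out each array. Plots used matplotlib 3.10.9 under Python 3.11.15.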

Additional observations from a re-analysis of the deposited data

Results flagged for a closer look

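Each member was examined in each group for an array far from the other 4, by its gap to the nearest array relative to the range of the group. Of 152 such groups of 5 arrays 3 stood out, fewer than the about 1 in 20 that chance gives. Mrps18c was 6.63 in replicate 5 with pegtarazimod, with the other pegtarazimod arrays between 6.20 and 6.25. Mrpl35 was 7.14 in replicate 5 with vehicle, with the other vehicle arrays between 6.85 and 6.89. Mrps12 was 7.61 in replicate 1 with vehicle, with the other vehicle arrays between 7.86 and 7.94. None of the 3 genes passed the test of pegtarazimod against vehicle.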

How the results depend on the processing

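No member was lower under any alternative, and none was higher under quantile normalisation, median centring, leaving out the dimmest 25%, robust priors with an intensity trend, weights per array, the mean over probe sets, all probe sets, or within replicates 3 to 5. Without the dimmest 50% of genes, 1 of the 73 members left was higher (Mrpl51), while 13.3% of the 9752 genes left passed. The count of members higher was 1 with the block for replicates 1 and 2 against 3 to 5 (Mrpl15, 9.33% of all genes passed). It was also 1 within replicates 1 and 2 (Mrpl51, 6.3% of all genes passed). Leaving out each array gave 0 to 2 higher, the 2 being Mrpl15 and Mrpl51 without replicate 4 with pegtarazimod, where 6.38% of all genes passed. The groups share replicate numbers, and the deviations of same-numbered arrays from group means correlated at 0.0993 to 0.310. Since replicate 3 did not exceed 0.1, the limit set for every pair, the samples were taken to share only a number. Replicates 1 to 4 with pegtarazimod correlated best with their own number, a hint from the data, and replicate 5 best with replicate 3 with vehicle. The fit with the replicate number as a block called 1 member (Mrpl15, adjusted p = 0.0427), and 1606 genes (8.23%) in place of 954. Any gene separates without overlap more easily by chance when each group has fewer arrays. The count of members higher without overlap was 28 within replicates 1 and 2 and 12 within replicates 3 to 5, those lower 5 and 3. Leaving out each array gave 4 to 10 higher and 1 lower. The shares over all genes in these settings are not given here, so these counts cannot be read as a result about the members. The median difference of the members stayed positive throughout, at 0.06 to 0.11 under the other alternatives and 0.04 to 0.11 on leaving out each array (0.04 without replicate 5 with pegtarazimod). Within replicates 1 and 2, Mrpl54 (0.10) and Mrps18a (0.053) turned positive, and the cause was not tested. Values have no detection calls, so signal over background is unknown.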
